A study of Mus musculus with 12 samples.

Results

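The genes of the heterotrimeric G proteins and of the regulators of G protein signalling (RGS) were described across the 4 groups of the study. They were taken by gene symbol, with no measured value used: the G alpha genes Gnai1 to Gnai3, Gnao1, Gnaq, Gnas, Gnal, Gnaz, Gnat1 to Gnat3 and Gna11 to Gna15, the G beta genes Gnb1 to Gnb5, every Gng gene with Gngt1 and Gngt2, and every gene named Rgs with a number. This gave 54 of the 32531 genes counted, of which 16 encode G alpha subunits, 5 G beta, 12 G gamma and 21 RGS proteins. The set was chosen with earlier results of these data known. Of the 54, 48 passed the filter on low counts and were tested, and 6 did not.

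A heterotrimeric G protein couples a receptor at the cell surface to enzymes and channels inside the cell. A ligand-bound receptor makes the alpha subunit exchange GDP for GTP, after which alpha and the beta-gamma dimer each act on effectors: Gs and Golf stimulate adenylyl cyclase, Gi, Go and Gz inhibit it or free beta-gamma for GIRK potassium and calcium channels, Gq and G11 activate phospholipase C beta, and G12 and G13 act through guanine nucleotide exchange factors of small GTPases. RGS proteins end the signal by speeding up GTP hydrolysis on alpha. In neurons these proteins carry the responses to neuropeptides, monoamines and metabotropic transmitters.

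The RNA came from adult mice of the transgenic line JX883 (Slc17a6-EGFP/Rpl10a), and no other genotype, treatment or age is named in the labels. Slc17a6 encodes VGLUT2, which loads glutamate into synaptic vesicles in many excitatory neurons below the cortex, and its regulatory sequence drives the ribosomal protein Rpl10a fused to EGFP. Translating ribosome affinity purification (TRAP) then captures tagged polysomes with antibodies against EGFP. The 4 groups of 3 libraries were hypothalamus IP (ribosome-bound RNA), hypothalamus input (RNA of the whole tissue), midbrain IP and midbrain input. All IP libraries carried 1 sequencing index and all inputs another, so fraction and index cannot be told apart, and for each replicate number the 2 regions ran on different lanes. The data are those of a single transgenic line, no IP from mice without the tag is named, and the labels do not say whether 1 animal or a pool went into a library. The p-values therefore measure only the spread between these samples. In RNA from tissue, fewer cells of a type and less RNA per cell cannot be told apart.

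Total counts were 41909019 to 55148109 per library. Slc17a6 stood at 2118 ± 1227 CPM (counts scaled by library size, here and below on the scale of edgeR's trimmed mean of M values, mean ± SD, n = 3) in the hypothalamus IP and 349 ± 154 in its input, and at 2738 ± 1087 and 775 ± 402 in the midbrain, log2 fold changes of 2.60 and 1.82. Markers of other cells were lower in the IPs: 10 of 10 astrocyte and 10 of 10 oligodendrocyte markers fell in each region, as did 9 and 9 of 10 GABAergic, 9 and 9 of 10 microglial, and 11 and 8 of 13 endothelial and mural markers. Summed over each list, astrocyte markers held 292 to 397 CPM in hypothalamus IP and 1301 to 2432 in input libraries, and 418 to 459 and 1721 to 2768 in the midbrain. Endothelial and mural markers summed to 1.82 to 3.53 against 22.8 to 32.6 CPM in the hypothalamus, where Cldn5, Slco1a4 and Ly6c1 were at 0 in the IP, and to 5.99 to 8.49 against 35.9 to 45.2 CPM in the midbrain, where none was at 0. General neuron markers rose for 7 of 10 in the hypothalamus and 3 of 10 in the midbrain. What these shifts contribute to the results below was not tested. The dopamine transporter gene Slc6a3 stood at 17.8 ± 18.3 CPM in the hypothalamus input and 48.1 ± 23.6 in the midbrain input, and choroid plexus and ependymal markers summed to between 25.9 and 957 CPM in the 3 midbrain inputs.

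The IP against input comparison asks which of these genes are enriched in ribosome-bound RNA of Slc17a6 cells over the whole tissue. In the hypothalamus 17 of the 48 tested G protein and RGS genes rose (35.4%, against 14.2% of all 18128 genes tested) and 10 fell (20.8%, against 19.6%), at an adjusted p under 0.05 in edgeR's quasi-likelihood test. In the midbrain 20 rose (41.7%, against 14% of all genes) and 10 fell (20.8%, against 19.9%). Their median log2 fold change was 0.39 in the hypothalamus and 0.34 in the midbrain, beside -0.08 and -0.05 over all genes tested. Scaling by library size alone moved those medians of all genes to -0.25 and -0.13. Under that scaling the hypothalamus calls of Gnb1, Gng4 and Rgs2 and the midbrain calls of Gna11, Gnb1, Rgs10, Rgs16 and Rgs8 were lost.

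In both regions 13 of the 48 rose, where 10.5% of all genes tested did: Gnas, Gnao1 and Gnaz of the alpha subunits, Gnb1, Gnb2 and Gnb5, Gng2, Gng3, Gng4 and Gng13, and Rgs7, Rgs10 and Rgs19. In both regions 9 fell, where 14.5% of all genes tested did: Gna12, Gna13, Gna15, Gng11, Gng12, Rgs5, Rgs9, Rgs11 and Rgs22. No gene rose in one region and fell in the other. A further 13 of the 48 passed in neither region, among them Gnaq, Gnai1 and Rgs17, which were all abundant.

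**Figure D1:**
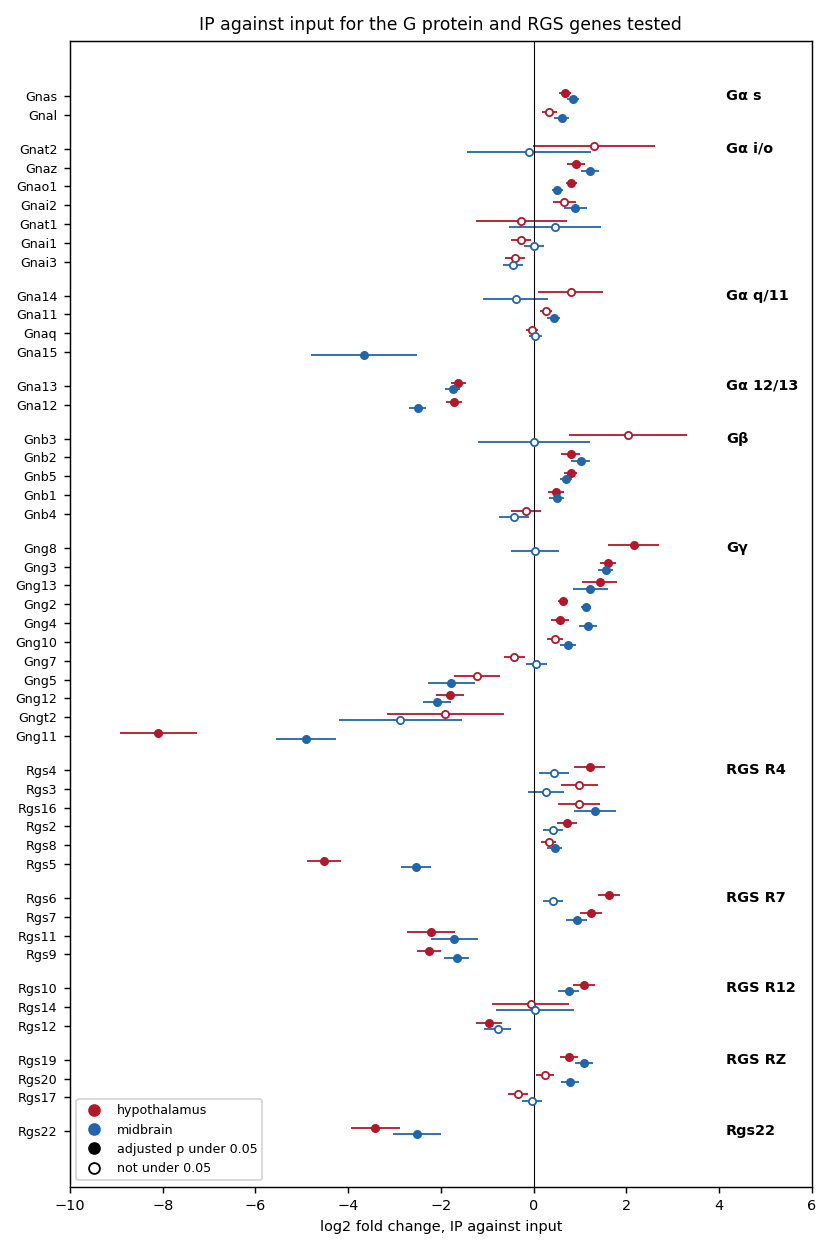
Log2 fold change of IP against input (x axis) for the tested G protein and RGS genes (y axis), grouped by role, in the hypothalamus (red) and the midbrain (blue); bars are standard errors from the edgeR fit and filled points have an adjusted p under 0.05. The G gamma genes run from Gng8 at 2.16 to Gng11 at -8.10 in the hypothalamus, both G alpha 12/13 genes lie below 0, and Gna15 is not drawn for the hypothalamus, where its IP had no counts.

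The start-site sequences of 2 genes that rose (Gng3, Rgs7) and 2 that fell (Gng12, Rgs5) in the IPs are shown, chosen after their values were seen, because they put genes that moved in opposite directions side by side. Each runs 5′ to 3′ from 250 bases before to 50 after the annotated start, from RefSeq (GRCm38.p6). Capitals mark matches on either strand to GGGCGG (the GC box), TGACG (the half-site of a cAMP response element), TATAAA (the TATA box) or CACGTG (an E-box), each searched for on its own, so that matches to different motifs may overlap. Gng3 (chr19:8839197-8839496, minus strand, 2 CpG) held no match, Rgs7 (chr1:175492496-175492795, minus strand, 34 CpG) a CACGTG, Gng12 (chr6:66896147-66896446, plus strand, 34 CpG) 3 matches to GGGCGG, of which 2 are on the opposite strand and read CCGCCC, and Rgs5 (chr1:169655251-169655550, plus strand, 6 CpG) none. Gng12 has another start site in the table (chr6:66896641-66896940, plus strand, 35 CpG), which held no match and is not printed.
Gng3: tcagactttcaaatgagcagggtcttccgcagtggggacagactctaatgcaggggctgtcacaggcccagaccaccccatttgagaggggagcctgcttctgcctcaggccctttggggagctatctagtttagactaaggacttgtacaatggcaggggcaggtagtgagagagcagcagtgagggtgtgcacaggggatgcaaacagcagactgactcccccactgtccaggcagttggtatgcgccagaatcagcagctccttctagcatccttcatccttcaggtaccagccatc
Rgs7: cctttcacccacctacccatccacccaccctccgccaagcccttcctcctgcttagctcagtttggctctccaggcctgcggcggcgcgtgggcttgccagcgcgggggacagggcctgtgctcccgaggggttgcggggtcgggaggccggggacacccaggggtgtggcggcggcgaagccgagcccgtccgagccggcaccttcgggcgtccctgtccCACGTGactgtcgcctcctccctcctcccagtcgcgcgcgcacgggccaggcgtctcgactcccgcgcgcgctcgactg
Gng12: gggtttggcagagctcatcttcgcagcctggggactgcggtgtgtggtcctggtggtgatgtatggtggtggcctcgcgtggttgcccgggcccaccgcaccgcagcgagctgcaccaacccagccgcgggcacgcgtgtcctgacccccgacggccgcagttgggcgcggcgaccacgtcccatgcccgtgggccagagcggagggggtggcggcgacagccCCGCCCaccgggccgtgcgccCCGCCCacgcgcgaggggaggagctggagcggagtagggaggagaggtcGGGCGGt
Rgs5: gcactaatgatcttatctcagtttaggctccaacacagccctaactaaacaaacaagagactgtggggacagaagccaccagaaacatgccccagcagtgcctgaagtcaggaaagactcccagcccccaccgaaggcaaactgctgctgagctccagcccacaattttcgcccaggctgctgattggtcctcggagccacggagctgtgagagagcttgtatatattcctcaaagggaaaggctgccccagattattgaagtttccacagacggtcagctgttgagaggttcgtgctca

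Of the 54 genes, 40 had an entry among these sequences, with 53 start sites. Their median CpG count was 20.00, beside 7 over all 32851 start sites of the table. It was 27 at the 19 start sites of genes that rose in both IPs and 30.00 at the 7 of genes that fell in both. GGGCGG was held by 50.9% of the start sites of these genes and 35.7% of all, CACGTG by 11.3% and 7.15%, TGACG by 24.5% and 20.8%, and TATAAA by 17% and 13.6%. The Gng3 and Rgs5 sequences, one from a gene that rose and one from a gene that fell, were both poor in CpG.

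Among the stimulatory alpha genes, Gnas rose in both IPs and had the highest level per length of all 16 alpha genes. It encodes Gs alpha, the activator of adenylyl cyclase. The hypothalamus IP held Gnas at 3504, 4593 and 4502 CPM and the input at 2482, 2815 and 2541 CPM. Midbrain libraries had 3596, 4167 and 4656 CPM in the IP and 2237, 2414 and 2269 CPM in the input. Values are given in the order of replicates 1, 2 and 3, here and below. Every IP library lay above every input library, with a log2 fold change of 0.68 ± 0.13 (SE) in the hypothalamus (edgeR adjusted p = 0.0019) and 0.84 ± 0.13 in the midbrain (edgeR adjusted p = 5.37e-04). 22% of the exonic bases of Gnas lie in exons of the antisense genes Nespas and Gm20721, and without a stated strand setting their reads cannot be told apart.

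Gnal encodes Golf, the stimulatory alpha subunit of olfactory neurons and of the striatum. Gnal levels were 597, 589 and 728 CPM in the hypothalamus IP against 541, 410.0 and 566 CPM in the input. They were 988, 858 and 1225 CPM in the midbrain IP against 655, 635 and 731 CPM in its input. Its level was highest in the midbrain IP, where all 3 libraries were above the other 9. It rose in the midbrain IP (log2 fold change 0.60 ± 0.16, edgeR adjusted p = 0.013; adjusted p 0.0502 to 0.0573 without midbrain IP 3 or all 4 libraries of number 1). In the hypothalamus it did not pass (log2 fold change 0.33 ± 0.16, edgeR adjusted p = 0.133) unless replicate numbers were fitted as a block, which gave 0.34 (adjusted p = 0.013).

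Of the 7 tested alpha genes of the Gi, Go and Gz class, Gnao1 and Gnaz rose in both IPs and Gnai2 in the midbrain, and none fell. Over all genes tested, 14.2% rose and 19.6% fell in the hypothalamus, and 14% and 19.9% in the midbrain. Gnao1 encodes Go alpha, the most abundant alpha subunit of brain membranes. In hypothalamus IP libraries Gnao1 was at 2308, 2269 and 2300.3 CPM, and in the inputs at 1211, 1279.6 and 1415 CPM. The midbrain IP had 1665, 1629 and 1912 CPM and its input 1073, 1289.7 and 1282 CPM. The 3 hypothalamus IP libraries lay within a few percent of each other and above the other 9. The log2 fold change was 0.82 ± 0.11 in the hypothalamus (edgeR adjusted p = 2.39e-04) and 0.51 ± 0.11 in the midbrain (edgeR adjusted p = 0.00439).

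Gnaz encodes Gz alpha, the member of the class that pertussis toxin does not block. Gnaz stood at 166, 247 and 219 CPM in the hypothalamus IP and at 96.3, 117 and 122 CPM in its input. In the midbrain the values were 157, 184 and 223 CPM in the IP and 65.3, 88.8 and 87.9 CPM in the input. IP and input libraries did not overlap in either region, with log2 fold change 0.92 ± 0.19, edgeR adjusted p = 0.00324 in the hypothalamus, and log2 fold change 1.22 ± 0.19, edgeR adjusted p = 6.02e-04 in the midbrain. Gnai2 stood at 318, 197 and 180.1 CPM in the midbrain IP and 134, 137 and 102 CPM in its input (log2 fold change 0.90 ± 0.25, edgeR adjusted p = 0.0152; adjusted p 0.0642 to 0.0695 without midbrain IP 1 or midbrain input 3). Its hypothalamus value did not pass (log2 fold change 0.66 ± 0.25, edgeR adjusted p = 0.0588) but did with the block, at 0.64 (adjusted p = 0.00232). Hypothalamus Gnai2 also passed with DESeq2 (0.62, adjusted p = 0.0469) and with no filter. The same held without hypothalamus IP 3, hypothalamus input 1, midbrain IP 1 or all 4 libraries of number 1. Gnai1, the second of the class by level per length, was at 289, 342 and 450.0 CPM in the hypothalamus IP and 541, 354 and 412 CPM in the input, groups that overlapped (log2 fold change -0.27 ± 0.21). The midbrain log2 fold change of Gnai1 was 0.00 ± 0.21. Gnai3 had log2 fold changes of -0.40 and -0.44 in the 2 regions and passed in neither. The transducin genes of rods and cones, Gnat1 and Gnat2, had group means of at most 0.51 and 0.8 CPM and passed in no comparison.

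In the Gq and G11 class, Gna11 rose in the midbrain IP, Gna15 fell in both IPs, and Gnaq passed in neither. Gnaq, whose product activates phospholipase C beta, was at 328, 425 and 437 CPM in the hypothalamus IP and 402, 405 and 412 CPM in the input, groups that overlapped. Its log2 fold change was -0.04 ± 0.14 in the hypothalamus and 0.03 ± 0.14 in the midbrain. Gna11 rose in the midbrain, from 75.5, 81.7 and 81.1 CPM in the input to 109, 104 and 108 CPM in the IP (log2 fold change 0.43 ± 0.13, edgeR adjusted p = 0.0259; adjusted p 0.0558 to 0.082 without hypothalamus input 3, midbrain IP 1 or 3 or midbrain input 1, 2 or 3). In the hypothalamus its log2 fold change was 0.27 ± 0.13 and did not pass, except without hypothalamus IP 1 or all 4 libraries of number 1. Gna15, known from blood cells, had 0 counts in all 3 hypothalamus IP libraries and 89 in the 3 inputs, so that it was at least 9.96-fold lower against a floor of 3 counts per library. In the midbrain it stood at 0, 0.0576 and 0.0846 CPM in the IP and 0.423, 1.16 and 0.307 CPM in the input (log2 fold change -3.66 ± 1.14, edgeR adjusted p = 0.0311; adjusted p 0.0511 to 0.117 without hypothalamus input 1 or 2, midbrain IP 1, 2 or 3, midbrain input 1 or 2 or all 4 libraries of number 1). Gna14 had a group mean of at most 1.13 CPM and passed nowhere.

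Both genes of the G12 and G13 class, which acts on the cytoskeleton through such exchange factors, fell in both IPs, where 14.5% of all genes tested did. Gna13 was at 49.5, 55.2 and 52.6 CPM in the hypothalamus IP against 182, 169 and 135 CPM in the input (log2 fold change -1.63 ± 0.16, edgeR adjusted p = 3.07e-05). Its midbrain values were 36.9, 46.7 and 42.8 CPM in the IP and 152, 156 and 117 CPM in the input (log2 fold change -1.75 ± 0.16, edgeR adjusted p = 1.98e-05). All 6 IP libraries thus lay below all 6 inputs. Gna12 showed the same order. Its values were 10.6, 12.2 and 10.8 CPM in the hypothalamus IP and 39.1, 39.6 and 32 CPM in the input (log2 fold change -1.72 ± 0.18, edgeR adjusted p = 3.63e-05). In the midbrain they were 11.4, 8.66 and 10.6 CPM and 48.9, 65.6 and 59.3 CPM (log2 fold change -2.50 ± 0.18, edgeR adjusted p = 3.72e-06).

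G beta genes rose or did not pass, and none fell. Since 19.6% of all genes tested fell in the hypothalamus and 19.9% in the midbrain, no fall among 5 genes is near that share. Gnb1, by far the most abundant of the 5, was at 1079, 1625 and 1779 CPM in the hypothalamus IP and 1061, 1031 and 1126 CPM in the input, and at 1391, 1685 and 1909 and 1134, 1187 and 1216 CPM in the midbrain. The lowest hypothalamus IP library, replicate 1, lay within the range of the inputs, so those groups overlapped. Its calls were the weakest of the class: log2 fold change 0.48 ± 0.17, edgeR adjusted p = 0.046 in the hypothalamus, with adjusted p 0.0566 to 0.172 without hypothalamus IP 2 or 3, hypothalamus input 1, 2 or 3, midbrain IP 2 or midbrain input 1, 2 or 3, and log2 fold change 0.50 ± 0.17, edgeR adjusted p = 0.04 in the midbrain, with adjusted p 0.0559 to 0.139 without hypothalamus input 2 or 3, midbrain IP 2 or 3 or midbrain input 1, 2 or 3. Neither call held with DESeq2 (adjusted p = 0.0797 and 0.0801).

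Gnb5 encodes the divergent beta subunit that pairs with RGS proteins of the R7 subfamily in place of a gamma subunit. The hypothalamus IP held Gnb5 at 143, 151 and 135 CPM and the input at 74.3, 83.7 and 88.6 CPM. Midbrain libraries had 117, 106 and 135 CPM in the IP and 66.5, 72.6 and 82.1 CPM in the input. It rose in both regions, with no overlap, by 0.80 ± 0.14 on the log2 scale in the hypothalamus (edgeR adjusted p = 0.00112) and 0.70 ± 0.14 in the midbrain (edgeR adjusted p = 0.00254). Gnb2 rose as well. It was at 35.1, 35.4 and 33.6 CPM in the hypothalamus IP and 22.3, 16.3 and 21.1 CPM in the input (log2 fold change 0.80 ± 0.21, edgeR adjusted p = 0.0102), and the midbrain IP stood at 39.2, 23.1 and 28.4 CPM against 15.1, 13.4 and 16.4 CPM (log2 fold change 1.01 ± 0.21, edgeR adjusted p = 0.00298). Gnb4 did not pass in either region (log2 fold changes -0.17 and -0.43). Gnb3, a subunit of cones and taste cells, had a group mean of at most 0.25 CPM.

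The G gamma genes spread over a wider range than any other class. Of 11 tested, 5 rose and 2 fell in the hypothalamus, and 5 rose and 3 fell in the midbrain. Of all genes tested, 14.2% rose and 19.6% fell in the hypothalamus, and 14% and 19.9% in the midbrain. The counts of falls were thus near the share of all genes. Gng3, a gamma subunit known from neurons, led the class by level. Gng3 levels were 2085, 2078 and 2023 CPM in the hypothalamus IP against 511, 729 and 792 CPM in the input. They were 1901, 1698 and 1761 CPM in the midbrain IP against 495, 717 and 617 CPM in its input. All 6 IP libraries lay far above the highest input of their region (edgeR log2 fold change 1.61 ± 0.17, adjusted p = 4.23e-05, and 1.55 ± 0.17, adjusted p = 5.43e-05). The gene lies on chr19:8836933-8839194 (minus strand), and 24.2% of its exonic bases lie in exons of Bscl2 on the other strand. Ambiguous reads were 3.14% to 3.65% of gene and ambiguous reads in IPs and 7.68% to 26.0% in inputs. The lowest Gng3 input of each region, 511 and 495 CPM, had the most ambiguous reads of its region (26.0% and 23.8%). Their part in the Gng3 rise was not tested.

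Gng2 and Gng4, also known from brain, rose in both regions. In hypothalamus IP libraries Gng2 was at 965, 1119 and 1099 CPM, and in the inputs at 666, 716 and 673 CPM. The midbrain IP had 973, 904 and 1036 CPM and its input 452, 424 and 448 CPM. The IP and input libraries did not overlap (log2 fold change 0.63 ± 0.10, edgeR adjusted p = 7.61e-04 in the hypothalamus, and log2 fold change 1.14 ± 0.10, edgeR adjusted p = 1.70e-05 in the midbrain). Gng4 stood at 253, 328 and 227 CPM in the hypothalamus IP against 159.5, 216 and 169 CPM in the input (log2 fold change 0.57 ± 0.19, edgeR adjusted p = 0.0327; adjusted p 0.105 to 0.143 without hypothalamus IP 2, hypothalamus input 1 or 3 or all 4 libraries of number 1). Midbrain Gng4 levels were 239, 248 and 183 CPM in the IP and 92, 117 and 88.5 CPM in the input (log2 fold change 1.17 ± 0.19, edgeR adjusted p = 6.98e-04). Of the exonic bases of Gng2, 20.4% lie in exons of Gm48283 on the other strand, so its count is uncertain. The inputs of Gng2 and Gng4 differed between the regions, as described below.

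Gng13, a gamma subunit of taste and retinal bipolar cells, was at 7.43, 7.62 and 4.96 CPM in the hypothalamus IP and 1.39, 2.68 and 3.36 CPM in the input (log2 fold change 1.43 ± 0.38, edgeR adjusted p = 0.0123; adjusted p 0.0593 without all 4 libraries of number 1). The midbrain values were 8.54, 8.01 and 7.79 CPM in the IP and 2.23, 3.4 and 4.78 CPM in the input (log2 fold change 1.23 ± 0.38, edgeR adjusted p = 0.0245; adjusted p 0.0505 to 0.0923 without midbrain IP 1 or 2, midbrain input 1 or 2 or all 4 libraries of number 1). 51.6% of its exonic bases overlap Chtf18 on the other strand, so its count is uncertain. Gng8, described in olfactory and vomeronasal neurons, rose in the hypothalamus, at 4.98, 4.61 and 12.9 CPM in the IP and 1.05, 1.25 and 2.74 CPM in the input (log2 fold change 2.16 ± 0.54, edgeR adjusted p = 0.00943). Replicate 3 was the highest in both fractions. Midbrain libraries had 3.55, 3.03 and 4.55 CPM in the IP and 1.88, 3.61 and 5.44 CPM in the input, groups that overlapped (log2 fold change 0.03 ± 0.52). Gng10 rose in the midbrain (log2 fold change 0.74 ± 0.17, edgeR adjusted p = 0.00645) and did not pass in the hypothalamus, except with the block (0.45, adjusted p = 0.0422) or without midbrain IP 3. Its count is uncertain, since 72% of its exonic bases also belong to Gm20503 on the same strand.

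Gng11 and Gng12, gamma subunits found widely outside neurons, fell in both IPs. Gng11 had 6 counts in all in the 3 hypothalamus IP libraries, 0.0604, 0.0551 and 0 CPM, and stood at 5.68, 13.7 and 13.9 CPM in the input (log2 fold change -8.10 ± 0.82, edgeR adjusted p = 3.34e-05). The midbrain IP stood at 0.319, 1.34 and 0.402 CPM and its input at 14.3, 28.3 and 20.2 CPM (log2 fold change -4.91 ± 0.64, edgeR adjusted p = 1.79e-04). Every input library of either region lay above every IP library. Gng12 stood at 17.9, 26.6 and 21.3 CPM in the hypothalamus IP and at 74.7, 73.9 and 80.9 CPM in its input. In the midbrain the values were 14.5, 15.6 and 34.3 CPM in the IP and 75.6, 97.4 and 99 CPM in the input. Gng12 fell with no overlap in either region (log2 fold change -1.80 ± 0.29, edgeR adjusted p = 7.32e-04 in the hypothalamus, and log2 fold change -2.08 ± 0.30, edgeR adjusted p = 3.19e-04 in the midbrain). Gng5 was at 0.786, 2.11 and 1.69 CPM in the midbrain IP and 3.98, 6.49 and 5.25 CPM in the input (log2 fold change -1.77 ± 0.50, edgeR adjusted p = 0.0167; adjusted p 0.0562 to 0.0581 without midbrain IP 1 or midbrain input 2). In the hypothalamus Gng5 did not pass, but did with the block (-1.29, adjusted p = 0.0136), with DESeq2 (-1.26, adjusted p = 0.0335), with limma-voom and without hypothalamus IP 2. Gng7, the gamma partner of Golf in the striatum, passed in neither region (log2 fold changes -0.41 ± 0.22 and 0.06 ± 0.22). Marker sums of endothelial and mural cells, astrocytes, oligodendrocytes, microglia and GABAergic neurons were all far lower in the IPs than in the inputs. The part of any of these lists in the falls of Gng11 and Gng12 was not tested.

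**Figure D2:**
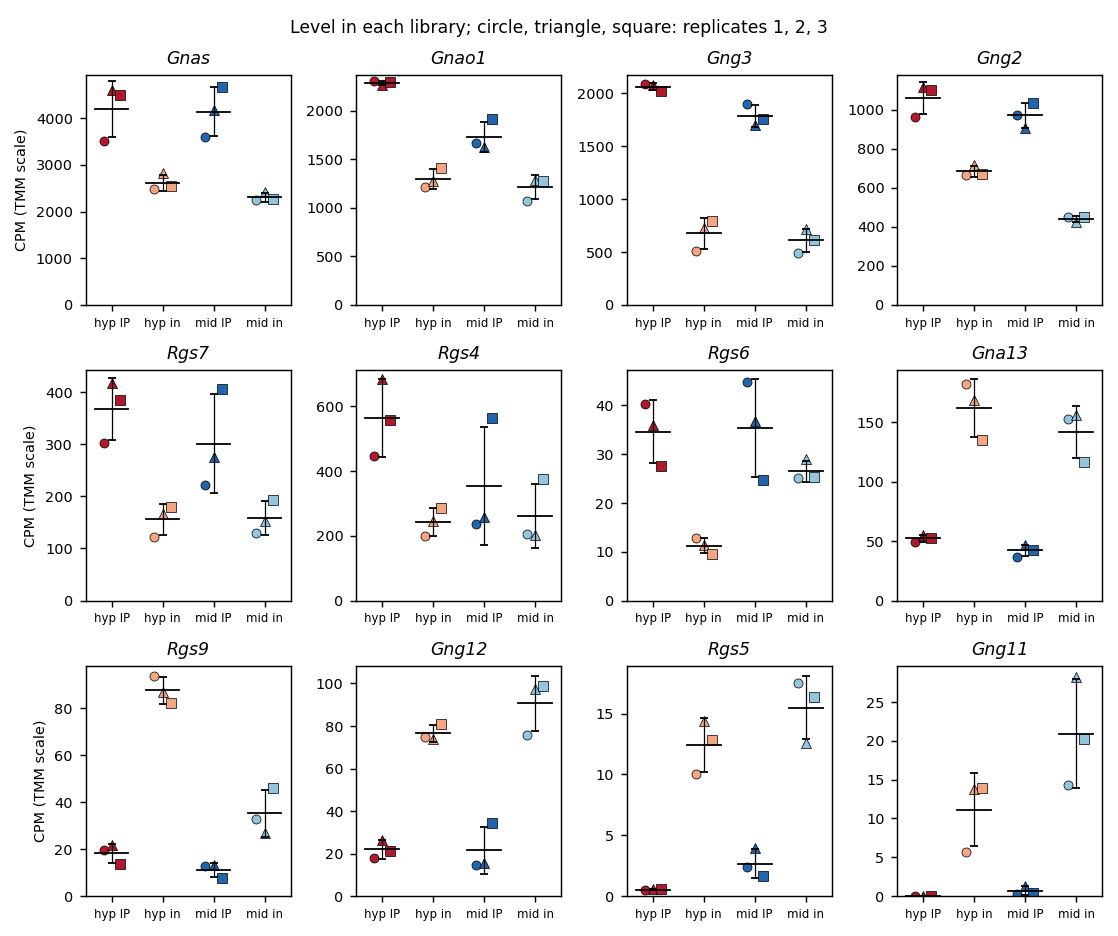
Level in CPM (y axis, from 0, one scale per gene) of selected G protein and RGS genes in each of the 12 libraries, by group (x axis); points are libraries, horizontal lines group means and vertical bars the SD (n = 3). Gng3 stands near 2062 CPM in the hypothalamus IP against 677 in its input, whereas Gna13, Rgs9, Gng12, Rgs5 and Gng11 are lower in both IPs than in both inputs of their region.

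The RGS genes of the R4 subfamily, small proteins that act on Gi and Gq, moved in both directions. Of its 6 tested genes, 2 rose and 1 fell in each region. Among all genes tested, 14.2% rose and 19.6% fell in the hypothalamus, and 14% and 19.9% in the midbrain, so the falls were near that share. Rgs4, the most abundant RGS gene per length, was at 447, 686 and 559 CPM in the hypothalamus IP and 199.9, 245 and 286 CPM in the input. It rose there (log2 fold change 1.21 ± 0.34, edgeR adjusted p = 0.0153; adjusted p 0.0539 to 0.0787 without hypothalamus IP 2, hypothalamus input 1 or all 4 libraries of number 1). Midbrain Rgs4 was at 237, 259 and 563 CPM in the IP and 204, 202 and 375 CPM in the input. Replicate 3 was the highest of both midbrain groups, which overlapped, and the difference did not pass (log2 fold change 0.44 ± 0.33, edgeR adjusted p = 0.338).

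Rgs2, which acts mainly on Gq, rose in the hypothalamus from 119, 193 and 159.7 CPM in the input to 236, 325 and 219.6 CPM in the IP (log2 fold change 0.72 ± 0.22, edgeR adjusted p = 0.0221; adjusted p 0.0688 to 0.0989 without hypothalamus IP 2 or hypothalamus input 1 or 3). The midbrain log2 fold change, 0.42 ± 0.22, did not pass. Rgs16 rose in the midbrain, where it was at 137, 99.3 and 242 CPM in the IP and 46, 53.8 and 91.7 CPM in the input (log2 fold change 1.32 ± 0.45, edgeR adjusted p = 0.0396; adjusted p 0.0531 to 0.183 without hypothalamus input 2, midbrain IP 1 or 3, midbrain input 1 or 2 or all 4 libraries of number 1). Rgs8, known from cerebellar Purkinje cells, rose in the midbrain by the smallest margin of these calls (log2 fold change 0.46 ± 0.16, edgeR adjusted p = 0.0486; adjusted p 0.0529 to 0.186 without hypothalamus IP 2 or 3, hypothalamus input 1, 2 or 3, midbrain IP 1 or 3, midbrain input 1, 2 or 3 or all 4 libraries of number 1). This Rgs8 call was also lost with DESeq2 (adjusted p = 0.0949), with both other scalings and with only the groups compared. With the block, Rgs16 (0.94 (adjusted p = 5.43e-04)), Rgs8 (0.34 (adjusted p = 0.0243)) and Rgs3 (1.01 (adjusted p = 0.00218)) also passed in the hypothalamus. That fit called 23 genes higher (19.5% of all genes) and 11 lower (23.8%) there, in place of 17 and 10. Without hypothalamus input 3, Rgs3 and Rgs8 passed there too, as did Rgs3 without midbrain IP 3.

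Rgs5, a common marker of pericytes, fell in both regions. The hypothalamus IP held Rgs5 at 0.463, 0.551 and 0.599 CPM and the input at 9.998, 14.4 and 12.8 CPM. Midbrain libraries had 2.36, 3.95 and 1.65 CPM in the IP and 17.5, 12.6 and 16.4 CPM in the input. The hypothalamus IP stood below every midbrain IP library, and both below every input (log2 fold change -4.52 ± 0.37, edgeR adjusted p = 6.50e-06, and log2 fold change -2.54 ± 0.33, edgeR adjusted p = 1.68e-04 in the midbrain). The endothelial and mural markers, a list that does not hold Rgs5, summed to 1.82 to 3.53 CPM in the hypothalamus IP and 5.99 to 8.49 CPM in the midbrain IP. Their part in the Rgs5 result was not tested.

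All 4 genes of the R7 subfamily, whose proteins form dimers with Gnb5, were tested. Rgs7 rose in both IPs, Rgs6 in the hypothalamus, and Rgs9 and Rgs11 fell in both. Among all genes tested, 10.5% rose and 14.5% fell in both regions, and 14.2% rose in the hypothalamus. Rgs7 levels were 303, 418 and 385 CPM in the hypothalamus IP against 122, 166 and 179.6 CPM in the input. They were 222, 275 and 407 CPM in the midbrain IP against 129.6, 154 and 193 CPM in its input. IP and input libraries did not overlap in either region (log2 fold change 1.24 ± 0.24, edgeR adjusted p = 0.00197 in the hypothalamus, and log2 fold change 0.93 ± 0.24, edgeR adjusted p = 0.00993 in the midbrain). Rgs6 was at 40.3, 36.1 and 27.6 CPM in the hypothalamus IP and 12.8, 11.4 and 9.59 CPM in the input (log2 fold change 1.62 ± 0.23, edgeR adjusted p = 2.91e-04). The midbrain values were 44.7, 36.8 and 24.8 CPM in the IP and 25.2, 29 and 25.3 CPM in the input, which overlapped (log2 fold change 0.42 ± 0.22, edgeR adjusted p = 0.172). The IPs of the 2 regions overlapped in level and the inputs did not.

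Rgs9, whose products are known from photoreceptors and the striatum, stood at 19.4, 21.7 and 13.8 CPM in the hypothalamus IP and 93.8, 86.9 and 82.2 CPM in the input (log2 fold change -2.26 ± 0.27, edgeR adjusted p = 8.52e-05). The midbrain had 12.6, 13.2 and 7.49 and 32.6, 26.8 and 46.1 CPM (log2 fold change -1.66 ± 0.26, edgeR adjusted p = 6.09e-04). All 6 IP libraries lay below all 6 inputs. Markers of striatal neurons, which express Rgs9, summed to 177 to 287 CPM in the hypothalamus IP and 163 to 338 CPM in the input, and to 285 to 359 CPM in the midbrain IP and 206 to 258 CPM in its input, where the sums were higher in the IP and did not overlap. Of these 9 markers, 1 fell and none rose in each region. GABAergic markers summed to 199 to 362 CPM in the hypothalamus IP and 1746 to 2337 CPM in its input. Their midbrain sums were 137 to 259 CPM in the IP and 1245 to 1801 CPM in the input. The part of either list in the Rgs9 result was not tested. Rgs11 was less abundant, at 1.09, 1.8 and 0.375 CPM in the hypothalamus IP and 4.82, 4.94 and 5.5 CPM in the input (log2 fold change -2.22 ± 0.52, edgeR adjusted p = 0.00616). Its midbrain values were 1.28, 2 and 1.44 and 3.25, 4.85 and 7.38 CPM (log2 fold change -1.71 ± 0.51, edgeR adjusted p = 0.0209; adjusted p 0.0611 to 0.0916 without midbrain IP 1 or 3, midbrain input 3 or all 4 libraries of number 1). Of the membrane anchors of R7 proteins, Rgs7bp and Gpr158 did not pass in either region (Gpr158 log2 fold changes 0.62 ± 0.36 and 0.51 ± 0.36, Rgs7bp 0.71 ± 0.31 and 0.33 ± 0.31).

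In the R12 subfamily, Rgs10 rose and Rgs12 fell or did not pass. Rgs10, a small protein that acts on Gi and is also abundant in microglia, was at 86.1, 138 and 97.4 CPM in the hypothalamus IP and 42.9, 56.4 and 52.3 CPM in the input (log2 fold change 1.08 ± 0.23, edgeR adjusted p = 0.00365). Its midbrain IP had 55.8, 77.3 and 53.3 CPM and its midbrain input 30.3, 46.9 and 32.9 CPM (log2 fold change 0.76 ± 0.23, edgeR adjusted p = 0.0234; adjusted p 0.0825 to 0.0978 without midbrain IP 2 or midbrain input 1 or 3). Microglial markers summed to 4.17 to 6.12 CPM in the hypothalamus IP and 46.2 to 114 CPM in the input. Their midbrain sums were 8.51 to 14.4 CPM in the IP and 72.7 to 129 CPM in the input. The part of microglial RNA in the Rgs10 result was not tested. Rgs12 was lower in the hypothalamus IP (4.01, 4.5 and 5.23 CPM) than in the input (10.2, 6.6 and 10.05 CPM; log2 fold change -0.97 ± 0.28, edgeR adjusted p = 0.0204; adjusted p 0.0569 to 0.13 without hypothalamus IP 1 or 2, hypothalamus input 1 or 3 or all 4 libraries of number 1). Its midbrain value did not pass (log2 fold change -0.78 ± 0.28, edgeR adjusted p = 0.0528). Midbrain Rgs12 did pass with DESeq2 (-0.83, adjusted p = 0.00876) and with the block (-0.79, adjusted p = 0.0438). It also passed with both other scalings and without midbrain IP 1. Rgs14, known from the hippocampus, had log2 fold changes of -0.06 ± 0.83 and 0.03 ± 0.85 at group means of at most 2 CPM.

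The RZ subfamily, which acts on Gz, held 3 tested genes. Rgs19 rose in both regions: its hypothalamus values were 44.4, 61.3 and 60.4 CPM in the IP and 35.6, 34.3 and 28 CPM in the input (log2 fold change 0.76 ± 0.19, edgeR adjusted p = 0.00821), and its midbrain values 58.4, 41.4 and 43.7 and 22, 24.9 and 20.7 CPM (log2 fold change 1.09 ± 0.19, edgeR adjusted p = 0.00113). Rgs20 rose in the midbrain (log2 fold change 0.79 ± 0.20, edgeR adjusted p = 0.00956) and did not pass in the hypothalamus (log2 fold change 0.24 ± 0.20, edgeR adjusted p = 0.372). Rgs17, the most abundant of the 3, was at 225, 405 and 420.1 CPM in the hypothalamus IP and 424, 472 and 432 CPM in the input, where it did not pass (log2 fold change -0.34 ± 0.21, edgeR adjusted p = 0.249), with a midbrain log2 fold change of -0.04 ± 0.21. Gnaz, the alpha gene on which these proteins act, had risen in both IPs. Rgs22, a gene known from testis, fell in both regions. It was at 0.403, 0.349 and 0.824 CPM in the hypothalamus IP and 6.69, 5.19 and 4.99 CPM in the input (log2 fold change -3.41 ± 0.53, edgeR adjusted p = 5.55e-04), with 0.361, 1.02 and 0.402 CPM in the midbrain IP and 3.84, 2.36 and 4.09 CPM in its input (log2 fold change -2.52 ± 0.52, edgeR adjusted p = 0.00301).

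Several of these genes are neighbours in the genome, which allowed adjacent genes to be read side by side. In the GENCODE annotation of the same build, 9 pairs lay within 100 kb of each other. Rgs13 with Rgs1 and Gngt1 with Gng11 held genes that were not tested, so these pairs could not be called in opposite directions. Rgs5 and Rgs4 lie 45.7 kb apart on chr1 (chr1:169655501-169695813, plus strand, and chr1:169741477-169747642, minus strand). In the hypothalamus IP the first fell and the second rose, the only pair of the 9 called in opposite directions there. In the midbrain the only such pair was Gna15, which fell, and Gna11, which rose, 4.5 kb apart on chr10. Rgs9 and Gna13, 64.7 kb apart on chr11, fell together in both regions. Rgs8 and Rgs16, 40.0 kb apart on chr1, rose together in the midbrain. The midbrain calls of Gna15, Gna11, Rgs8 and Rgs16 and the hypothalamus call of Rgs4 were each lost under some alternatives, as given above. How often neighbouring genes moved together or apart over all genes was not counted.

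To compare genes with each other, levels were divided by exon length and each gene's share of its class was taken (CPM per kb, as a percentage of the class, mean ± SD, n = 3, with no test, since 3 against 3 libraries cannot go below an exact two-sided p of 0.1). The share of the Gs class among all alpha genes was 43.1 ± 2.3% in the hypothalamus IP, 37.1 ± 2.4% in its input, 47 ± 1.88% in the midbrain IP and 37.9 ± 1.71% in its input. The Gi, Go and Gz class held 46.2 ± 3.03% in the hypothalamus IP, 45.8 ± 3% in its input, 43 ± 2.09% in the midbrain IP and 45.1 ± 2.3% in its input. The Gq and G11 class held 9.56 ± 0.753% in the hypothalamus IP, 12.3 ± 0.577% in its input, 9 ± 0.639% in the midbrain IP and 11.4 ± 0.649% in its input. The G12 and G13 class held 1.15 ± 0.0698% in the hypothalamus IP, 4.78 ± 0.624% in its input, 0.979 ± 0.065% in the midbrain IP and 5.54 ± 0.518% in its input. The balance of the Gs and Gi classes rested on the length used: with the longest transcript in place of all exons, the Gs share was 58.2%, 54.1%, 62.5% and 54.7% and the Gi share 35.9%, 35.7%, 31.9% and 35.2% in the same order of groups. Gnas spans 11186 exonic bases in all and 3947 in its longest transcript. With either length the Gs share was higher in each IP than in its input.

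Gnb1 made up 85.3 ± 3.51% in the hypothalamus IP, 88 ± 0.391% in its input, 88.9 ± 1.93% in the midbrain IP and 90.4 ± 0.635% in its input of the beta level. Gng3 made up 76.6 ± 1.61% in the hypothalamus IP, 58.7 ± 4.3% in its input, 75.9 ± 0.795% in the midbrain IP and 63.7 ± 2.55% in its input of the gamma level, and IP and input libraries did not overlap in that share. The Gng3 count, and with it this share, is uncertain because of the exons shared with Bscl2. Gng2 followed with 14.7 ± 1.05% in the hypothalamus IP and 22.7 ± 3.33% in its input. Among RGS genes the R4 subfamily held 61.6 ± 0.52% in the hypothalamus IP, 53.9 ± 3.7% in its input, 62.1 ± 7.35% in the midbrain IP and 61 ± 5.01% in its input. Rgs4 alone held 33.8 ± 1.51% in the hypothalamus IP, 24.1 ± 1.47% in its input, 23.8 ± 6.04% in the midbrain IP and 26.1 ± 5.55% in its input. Thus 1 gene dominated the beta and gamma levels in every group.

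**Figure D3:**
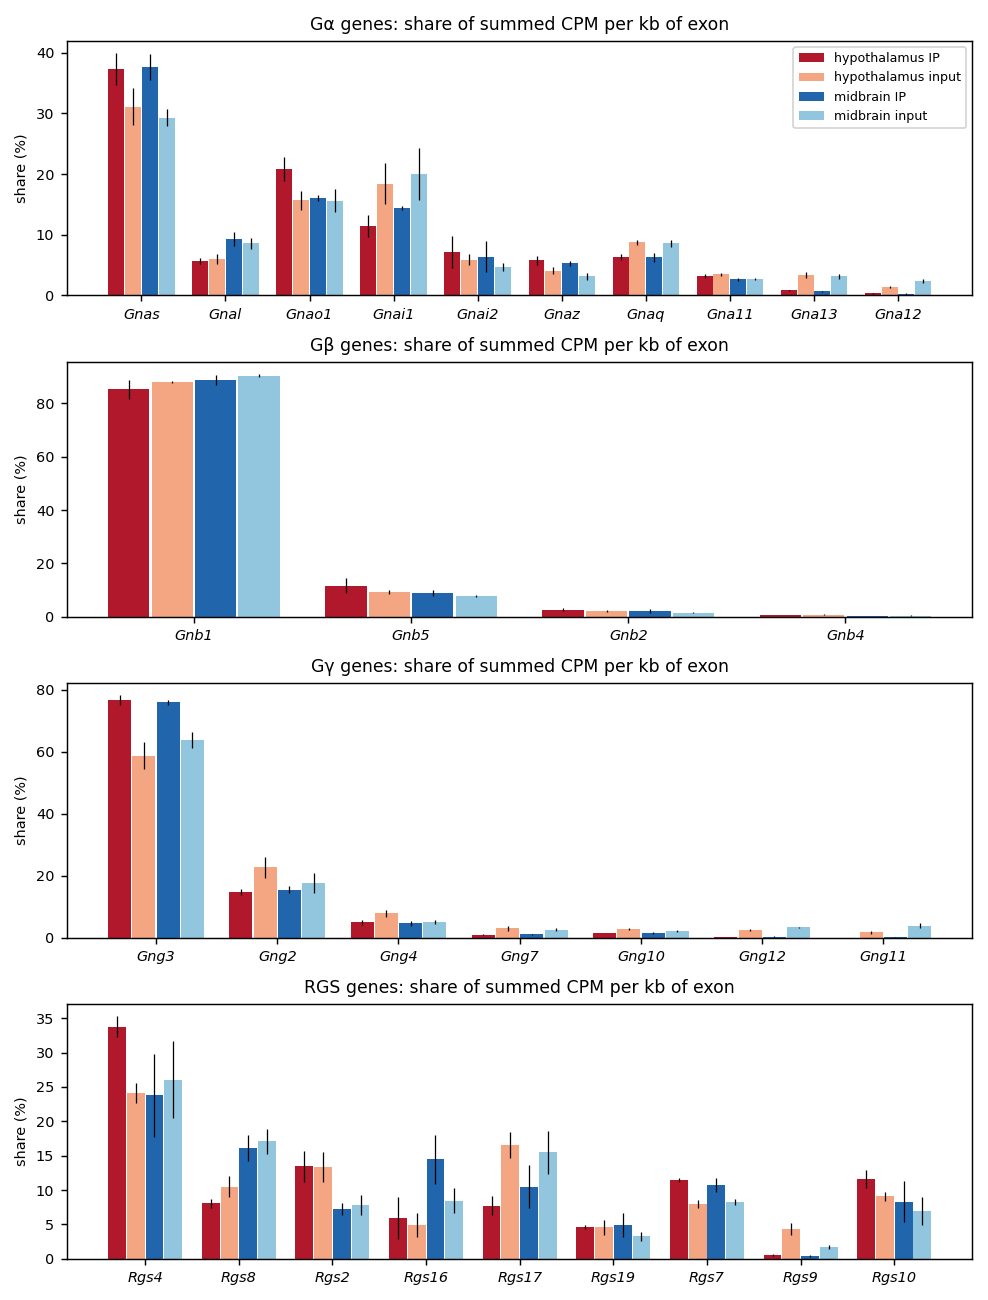
Share of each gene (x axis) in the summed CPM per kb of exon of its class (y axis, percent, from 0) in the 4 groups; bars are means and lines the SD over 3 libraries. Gnb1 and Gng3 are the largest bars of their classes in all groups, Gng3 at 76.6% in the hypothalamus IP and 58.7% in its input. Only selected genes of each class are drawn, not chosen by a cut on the share.

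Whether the IP effect differed between the regions was tested directly. At the same threshold 0 of the 48 genes passed in either direction (0.0607% and 0.0165% of all genes), 8 had an unadjusted p under 0.05 (6.56% of all genes), limma-voom called 0 and DESeq2 called 2. The DESeq2 calls were Rgs6 (1.23, adjusted p = 0.0256), with a larger IP effect in the hypothalamus (0.713% of all genes called in that direction), and Rgs5 (-1.97, adjusted p = 0.00905), with a stronger fall there (0.464%). In edgeR these differences were 1.20 ± 0.32 (adjusted p = 0.31) and -1.98 ± 0.46 (adjusted p = 0.212). With replicate numbers as a block, Rgs6 passed (1.24, adjusted p = 0.0373), where 0.32% of all genes were called in that direction. A gene that passed in only one region, such as Gng8, Rgs4 or Rgs16, is therefore not shown to differ between them. For Gng8 the difference was 2.13 ± 0.75 (edgeR adjusted p = 0.529).

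Between the IPs, which compares ribosome-bound RNA of Slc17a6 cells of the 2 regions, 1 gene was higher in the hypothalamus (2.05% of all genes) and 4 were lower (2.21%). Rgs2 was the higher one, at 236, 325 and 219.6 CPM in the hypothalamus IP and 101, 119 and 138 CPM in the midbrain IP (log2 fold change 1.12 ± 0.22, edgeR adjusted p = 0.0131; adjusted p 0.0555 to 0.06 without hypothalamus IP 2 or midbrain IP 1). The inputs lay in the same order without passing (log2 fold change 0.82 ± 0.22, edgeR adjusted p = 0.0962). Gnal was lower in the hypothalamus IP (log2 fold change -0.68 ± 0.16, edgeR adjusted p = 0.0358; adjusted p 0.0501 to 0.139 without hypothalamus IP 1 or 2, hypothalamus input 3, midbrain IP 1 or 3, midbrain input 1, 2 or 3 or all 4 libraries of number 1). So was Rgs8, at 363, 441 and 434 CPM against 676, 603 and 838 CPM (log2 fold change -0.77 ± 0.16, edgeR adjusted p = 0.0219; adjusted p 0.0545 to 0.069 without hypothalamus IP 1 or 2, midbrain IP 3 or all 4 libraries of number 1).

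The other 2 genes lower in the hypothalamus IP were Rgs5 (log2 fold change -2.30 ± 0.34, edgeR adjusted p = 0.00292) and Gng11 (log2 fold change -4.10 ± 0.82, edgeR adjusted p = 0.0161; adjusted p 0.0507 to 0.0557 without hypothalamus IP 2 or midbrain IP 2), both at low counts in the IPs. In the inputs neither differed past the threshold (log2 fold changes -0.32 ± 0.31 and -0.91 ± 0.54). Endothelial and mural markers were also lower in the hypothalamus IP: 3 of 13 fell, and the sums, 1.82 to 3.53 and 5.99 to 8.49 CPM, did not overlap. Their part in these calls was not tested. In a fit of the 2 IP groups alone, all 5 calls were lost (adjusted p 0.0537 to 0.189). With replicate numbers as a block, 5 genes were higher (4.41% of all genes) and 5 lower (6.75%), and the 5 called without it were among them. Those added were Gnao1 (0.41 (adjusted p = 0.00986)), Gnb4 (1.21 (adjusted p = 0.00251)), Rgs4 (0.78 (adjusted p = 0.0257)) and Rgs10 (0.78 (adjusted p = 0.00128)), higher in the hypothalamus, and Rgs16 (-1.14 (adjusted p = 6.84e-04)), lower.

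Between the inputs, which compares whole tissue of the 2 regions, 3 genes were higher in the hypothalamus (1% of all genes) and 1 was lower (0.601%). Rgs9 was higher, at 93.8, 86.9 and 82.2 CPM in the hypothalamus and 32.6, 26.8 and 46.1 CPM in the midbrain (log2 fold change 1.32 ± 0.26, edgeR adjusted p = 0.0247; adjusted p 0.0677 to 0.132 without hypothalamus input 1, 2 or 3, midbrain input 1 or 2 or all 4 libraries of number 1). Gng2 (log2 fold change 0.63 ± 0.10, edgeR adjusted p = 0.00898; adjusted p 0.0609 to 0.0712 without hypothalamus input 2 or 3 or midbrain input 2) and Gng4 (log2 fold change 0.87 ± 0.19, edgeR adjusted p = 0.0401; adjusted p 0.053 to 0.202 without hypothalamus input 1, 2 or 3, midbrain IP 1 or 2, midbrain input 1, 2 or 3 or all 4 libraries of number 1) were higher too. Their inputs did not overlap. Rgs6 was the lower one, at 12.8, 11.4 and 9.59 CPM against 25.2, 29 and 25.3 CPM (log2 fold change -1.24 ± 0.23, edgeR adjusted p = 0.0175; adjusted p 0.0537 to 0.0898 without hypothalamus input 2 or 3 or midbrain input 1, 2 or 3).

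None of these 4 differed past the threshold between the IPs, where the log2 fold changes were 0.72 ± 0.26 for Rgs9, 0.13 ± 0.10 for Gng2, 0.27 ± 0.19 for Gng4 and -0.03 ± 0.22 for Rgs6. Nor did any of the 5 genes called between the IPs pass between the inputs. The block moved the input counts to 9 higher (2.87% of all genes) and 5 lower (3.18%), adding Gnb4 (0.96 (adjusted p = 0.0155)), Rgs2 (0.82 (adjusted p = 0.00303)), Rgs20 (0.55 (adjusted p = 0.0492)), Rgs10 (0.48 (adjusted p = 0.0363)), Gnaz (0.47 (adjusted p = 0.0192)) and Gna11 (0.44 (adjusted p = 0.042)) as higher. Those it added as lower were Rgs16 (-0.78 (adjusted p = 0.0126)), Rgs8 (-0.66 (adjusted p = 0.00327)), Gna12 (-0.65 (adjusted p = 0.0379)) and Gnal (-0.42 (adjusted p = 0.0208)). With the block, Rgs2, Gnb4 and Rgs10 were thus higher and Gnal, Rgs8 and Rgs16 lower in the hypothalamus in both fractions.

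**Figure D4:**
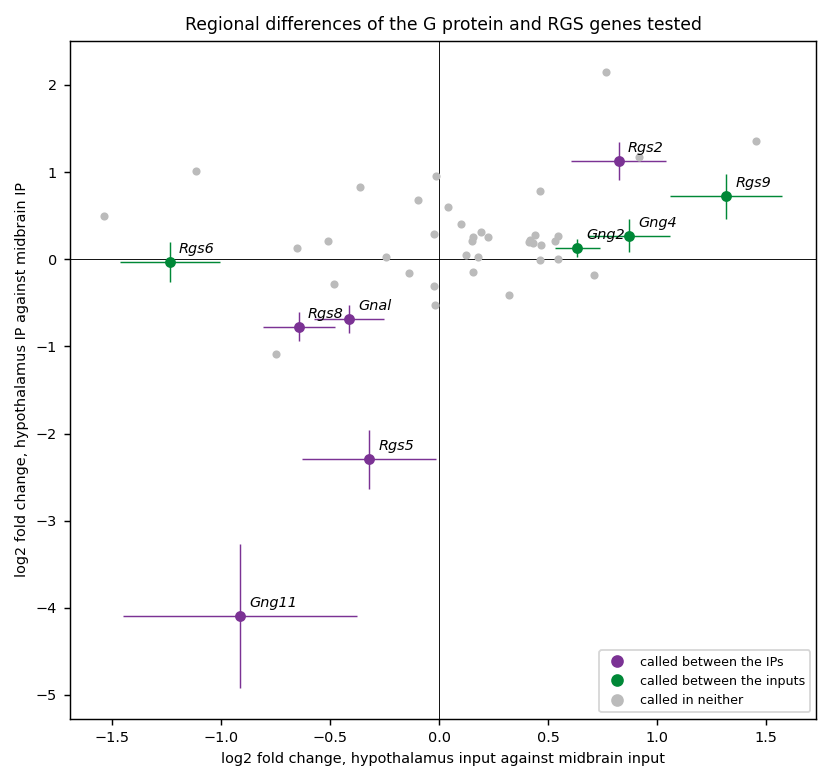
Log2 fold change of hypothalamus over midbrain in the IPs (y axis) and in the inputs (x axis) for the tested G protein and RGS genes; points are genes, bars (called genes only) the SE, and colours mark the comparison in which a gene was called without the block. Gng11 and Rgs5 lie far below 0 in the IPs (-4.10 and -2.30), Rgs6 and Rgs9 stand apart along the input axis (-1.24 and 1.32), and Gna15, with no counts in the hypothalamus IP, is not drawn.

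The partners of these proteins, a list of 49 effector and regulator genes of which 47 were tested, were counted in the same way. In the hypothalamus IP 12 rose (14.2% of all genes tested did) and 8 fell (19.6%), and in the midbrain IP 12 rose (14%) and 5 fell (19.9%). The share of the list that rose was above that of all genes in both regions. The share that fell was near that of all genes in the hypothalamus and below it in the midbrain. Subunits of protein kinase A, the main target of cyclic AMP, rose for 5 of 6 in the hypothalamus and 6 of 6 in the midbrain. Of the 10 adenylyl cyclase genes, 0 and 1 rose and none fell. The largest rises were those of Rasd2, a small GTPase that binds beta-gamma (1.44 ± 0.23 and 1.34 ± 0.23 on the log2 scale), the GIRK channel gene Kcnj9 (1.34 ± 0.37 in the hypothalamus) and the receptor kinase gene Grk6 (1.30 ± 0.21 in the midbrain), each past the threshold. The next were Kcnj3 (1.17 ± 0.23 in the hypothalamus) and Adrbk1, the gene of the receptor kinase GRK2 (1.16 ± 0.19 in the midbrain).

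The largest falls in this list were those of Gpsm2, which binds GDP-bound Gi alpha (-3.09 ± 0.73 and -2.0 ± 0.69), and of Plcb3, a phospholipase C beta (-2.77 ± 0.44 and -1.83 ± 0.42). Next came Gpsm1 in the hypothalamus (-1.14 ± 0.21), while in the midbrain the fall of Gpr179, an R7 anchor of the retina, was the largest (-3.67 ± 0.59). Arhgef1, an exchange factor that G12 and G13 activate, fell with those alpha genes in both regions (-1.06 ± 0.24 and -0.95 ± 0.24), and Arhgef11 and Arhgef12 did not pass.

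The 6 genes that were not tested had few or no reads. Gnat3 (gustducin, the taste alpha subunit), Gngt1 (the rod gamma subunit) and Rgs21 had 0 counts in all 12 libraries. A count of 0 allows up to 3 counts per library, or 0.0537 to 0.071 CPM. Rgs1, an RGS gene of lymphocytes, had 36 counts in the hypothalamus inputs and 29 in the midbrain inputs and none in any IP, so it was at least 4.19-fold and 3.58-fold lower in the IPs. Of those counts, 32 and 23 came from a single library in each region. Rgs13 had 13 counts in the hypothalamus inputs and 2 in the midbrain inputs, and Rgs18, known from platelets, had 9 counts, all in midbrain inputs. The reads carried no molecular identifiers, and the floors therefore cover counting error alone.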

How the data were processed

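TRAP-seq RNA of 12 libraries (4 groups of 3) was analysed. The authors deposited 1 table per library of raw counts, whole numbers with unequal totals. Per the submitters' processing notes, STAR 2.0.0e aligned the reads to mm10 and HTSeq counted them; the annotation, strand setting and counting mode are not given in the sources used here. Rows that name no gene (47.3% to 57.8% of the counts in a table) were left out.

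The tests were run with edgeR 4.0.16 in R 4.3.3: filterByExpr (18128 of 32531 genes kept), TMM scaling, 1 fit of 4 group means and the robust quasi-likelihood F test, with Benjamini-Hochberg adjustment over all genes tested and a threshold of 0.05. The 5 comparisons were IP against input in each region, the difference of these effects, and hypothalamus against midbrain within each fraction. The fit was tested on simulated data. Errors are SE for log2 fold changes and SD over 3 libraries for CPM. Coordinates and exon lengths came from GENCODE mouse release 21 (GRCm38, the same build), where all 54 genes matched by symbol, and start-site sequences from RefSeq. Genes that share exons with another gene, or have pseudogenes of their own name (Gnb1, Gng2, Gng5), have uncertain counts.

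Same-numbered libraries deviated together from their group means: correlations across genes were 0.155 to 0.324 for hypothalamus IP and input, 0.113 to 0.301 for the IPs and 0.141 to 0.379 for the inputs, all over 0.1, and blocked values are given there where they change a call. For the midbrain they were 0.0754 to 0.189. Ambiguous reads were 3.14% to 3.65% of gene and ambiguous reads in IPs and 7.68% to 26.0% in inputs, and the ribosomal RNA precursor Rn45s took 12.3% and 12.5% of counts in the number 1 IPs.

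The genes, the lists of pathway and marker genes and the tests were chosen with earlier results of these data known. Full statistics were given to the most abundant gene of each role. They were also given to genes past the threshold with a log2 fold change of at least 1 in size and a mean of at least 1 CPM. Other genes outside this rule, such as Gnal, Gnai2, Gna11 and Gnb5, received them as well. For lists of pathway genes, up to 3 genes per direction were named by size, besides others such as Rgs7bp, Gpr158 and Arhgef1. Alternatives were DESeq2 1.42.0, limma-voom (limma 3.58.1), other scalings, no filter, the replicate block, only the groups compared, transcript length and leaving out libraries.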

Additional observations from a re-analysis of the deposited data

How the results depend on the processing

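Of the 66 log2 fold changes called for these genes over the comparisons, 40 passed under every alternative run, 26 were lost under at least 1, and none changed sign. All 40 belonged to IP against input: 21 in the hypothalamus and 19 in the midbrain. Leaving out 1 library, or all libraries of number 1, gave 13 to 19 genes higher and 9 to 10 lower in the hypothalamus IP, 14 to 20 and 8 to 10 in the midbrain IP, 0 to 3 and 1 to 4 between the IPs, and 0 to 3 and 0 to 1 between the inputs. The difference of the IP effect gave 0 each time. Where a group was left with 2 libraries, the spread was still pooled over all groups.

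The other counts that moved by over 1.5 times concerned the regional comparisons. Between the IPs, genes higher numbered 3 with DESeq2, 2 with limma-voom, 5 with the replicate block and 0 with only the groups compared, which also gave 0 lower. Between the inputs, the block gave 9 higher and 5 lower, and DESeq2 3 lower. For the difference of the IP effect DESeq2 gave 1 higher and 1 lower, and the block 1 higher, Rgs6 (1.24, adjusted p = 0.0373). In the midbrain IP, where the numbers did not meet the criterion for pairing, the block added Gngt2, Rgs12 and Rgs2 and lost none. It lost no call in any comparison. The cause of these shifts was not tested.

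With the longest transcript in place of all exons, the Gi, Go and Gz share of the alpha level was 35.9%, 35.7%, 31.9% and 35.2%, and the Gs share 58.2%, 54.1%, 62.5% and 54.7% (hypothalamus IP, hypothalamus input, midbrain IP, midbrain input). The Gng3 share was 74.4% and 73.7% in the IPs of hypothalamus and midbrain. Here the lengths alone changed. Depth limits the genes with few reads, such as Gna15, Gng11 in the IPs and the untested Rgs1, Rgs13 and Rgs18.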
